A study of Mus musculus with 4 samples.

Results

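Expression of mTORC1, the growth-controlling kinase complex, and of its AKT-TSC control was followed through 10 genes, chosen by name among the 21470 genes of the count table. They were Mtor, Rptor and Deptor for the complex, Akt1, Tsc1, Tsc2 and Rheb for its upstream control, and Rps6kb1, Eif4ebp1 and Eif4ebp2 for its substrates. RNA was read in the inner cell mass (ICM, labelled embryonic side) and the trophectoderm (TE, labelled extra-embryonic side) of wild-type mouse embryos from B6D2F1 males crossed to ICR females. The groups were D10 ICM, E4 ICM, D10 TE and E4 TE, with 5 libraries each. The series title places the times before and after diapause, the protocol calls all the dissected embryos diapause embryos, and the deposited barcode list marks D10 as day 6 and E4 as before. These labels conflict, so the times are called D10 and E4 here. All libraries share the genotype and the cross, and a separation of the tissues with the HTlasr system. Each group was mixed before amplification, so a group and its amplification pool cannot be told apart. The labels do not say how many embryos went into a library, and the p-values therefore measure only a spread among libraries that may be in part technical.

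The mTORC1 complex joins the kinase mTOR with the scaffold RAPTOR and responds to growth factors, energy and amino acids. Growth factors act through PI3K and AKT, which inhibits the TSC1-TSC2 complex and so frees RHEB, the small GTPase that activates mTORC1 at the lysosome. Active mTORC1 phosphorylates S6 kinase and the 4E-BP translation repressors, which then release the cap-binding factor eIF4E. In mouse blastocysts, inhibition of mTOR is known to bring on a reversible pause that resembles diapause. Most of this control runs through phosphorylation and location of the proteins, which RNA counts do not measure.

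The coding stretches that tie the substrates to the pathway are shown because Eif4ebp1, the first of the 4E-BP pair, passed in all 4 comparisons below. Capitals mark the codons of the motif that binds eIF4E, residues 53 to 59 of the 117 of 4E-BP1 and 54 to 60 of the 120 of 4E-BP2. Both stretches are GRCm38 coding sequence of GENCODE release M21, from the plus strand of chromosome 8 for Eif4ebp1 and the minus strand of chromosome 10 for Eif4ebp2.
Eif4ebp1 eIF4E-binding stretch: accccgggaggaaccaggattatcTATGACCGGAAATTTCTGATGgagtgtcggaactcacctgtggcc
Eif4ebp2 eIF4E-binding stretch: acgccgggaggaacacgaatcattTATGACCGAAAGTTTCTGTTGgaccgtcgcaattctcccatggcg
The motif codons were identical at 18 of 21 bases and coded 6 of 7 identical residues. In the next stretches, capitals mark the TOS motif, through which RAPTOR holds mTORC1 substrates. It ends both 4E-BP proteins, at residues 113 to 117 and 116 to 120, and lies at residues 28 to 32 of the 525 of S6K1, coded by Rps6kb1 on the minus strand of chromosome 11.
Eif4ebp1 TOS stretch with its stop codon: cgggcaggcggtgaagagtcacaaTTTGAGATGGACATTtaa
Eif4ebp2 TOS stretch with its stop codon: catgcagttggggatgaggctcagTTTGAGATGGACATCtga
Rps6kb1 TOS stretch: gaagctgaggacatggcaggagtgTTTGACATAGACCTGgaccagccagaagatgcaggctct
The TOS codons of Eif4ebp1 and Eif4ebp2 shared 14 of 15 bases and coded the same residues, and each shared 11 of 15 bases with those of Rps6kb1. Over the whole coding sequence the 4E-BP pair was 69.1% identical (241 of 349 aligned bases). No other transcript matched the last 500 bases of any of the 10 genes at 95% identity or more over at least 100 bases, apart from the overlapping neighbours of Tsc2 and Rps6kb1 named with those genes.

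Total counts per library ran from 144276 to 1010354. Of the 10 genes, 9 were among the 6943 that passed the filter on low counts, and Rptor, with 64 counts over the 20 libraries, did not. Levels are given as CPM, counts scaled to library size with TMM factors, in the order of replicates 1 to 5. A log2 difference is that of D10 minus E4 or of ICM minus TE, ± its standard error (SE), and passed at a Benjamini-Hochberg adjusted p under 0.05 over the 6943 genes. The 9 epiblast markers (the pluripotent cells of the ICM) summed to 617 to 1130 CPM in D10 ICM, 1490 to 2730 in E4 ICM, 77.5 to 135 in D10 TE and 85.9 to 180 in E4 TE. Sox2 and Tdgf1 were at 0 in all D10 TE libraries, Esrrb in all E4 TE libraries, and Fgf4 and Pou5f1 in both TE groups. The 8 primitive endoderm markers summed to 5850 to 9180 CPM in D10 ICM, 1750 to 3230 in E4 ICM, 2390 to 3200 in D10 TE and 983 to 1320 in E4 TE, with Cubn at 0 in E4 TE. Trophectoderm markers, 9 genes, were high in both TE groups, with medians of 7650 CPM at D10 and 7270 CPM at E4, and not absent from the ICM, with medians of 3900 CPM at D10 and 2370 CPM at E4. Maternal cell markers, 8 genes, had median sums of 18.6 CPM in D10 ICM, 25.5 in E4 ICM, 7.3 in D10 TE and 13.9 in E4 TE, with a highest library of 174 CPM in D10 ICM. In the ICM the trophectoderm sums ran from 3470 to 5430 CPM at D10 and from 2130 to 3010 CPM at E4. The marker sums of the ICM thus differed between the times, as did the primitive endoderm sum of the TE. In whole tissue fewer cells of a type cannot be told apart from less RNA per cell. The part of cell makeup in the differences below was not tested.

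Across time, Eif4ebp1 and Deptor fell in the ICM at D10, and Eif4ebp1 fell in the TE. Between the tissues, Deptor and Eif4ebp1 were higher in the ICM at both times, and Akt1 was lower in the ICM at D10. Of these 8 differences, 5 lost their call under some alternative processing given below. Among the 5 were the falls of Deptor in the ICM and of Eif4ebp1 in the TE. For D10 against E4 in the ICM, 0 of the 9 tested genes rose and 2 fell, where 13.7% of all tested genes rose and 9.97% fell. In the TE 0 rose and 1 fell, against 11.9% and 9.89% of all tested genes. For the ICM against the TE at E4, 2 were higher and 0 lower, where 15.8% and 15.4% of all tested genes were. At D10, 2 were higher and 1 lower, where 12.9% and 12.6% were. Each 0 was also 0 at an unadjusted p under 0.05 and by DESeq2 and limma voom. These shares of so few genes were near the background in each comparison. The ICM change with time minus the TE change passed for 0 of the 9 genes by edgeR's quasi-likelihood test, DESeq2 and limma voom, with 0 at an unadjusted p under 0.05, where 4.98% of all tested genes passed. The median log2 difference of the 9 genes was -0.28 for D10 against E4 in the ICM, -0.05 in the TE, -0.08 between the tissues at E4 and 0.08 at D10. Over all tested genes these medians were 0, 0.02, 0.03 and 0.01.

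**Figure D1:**
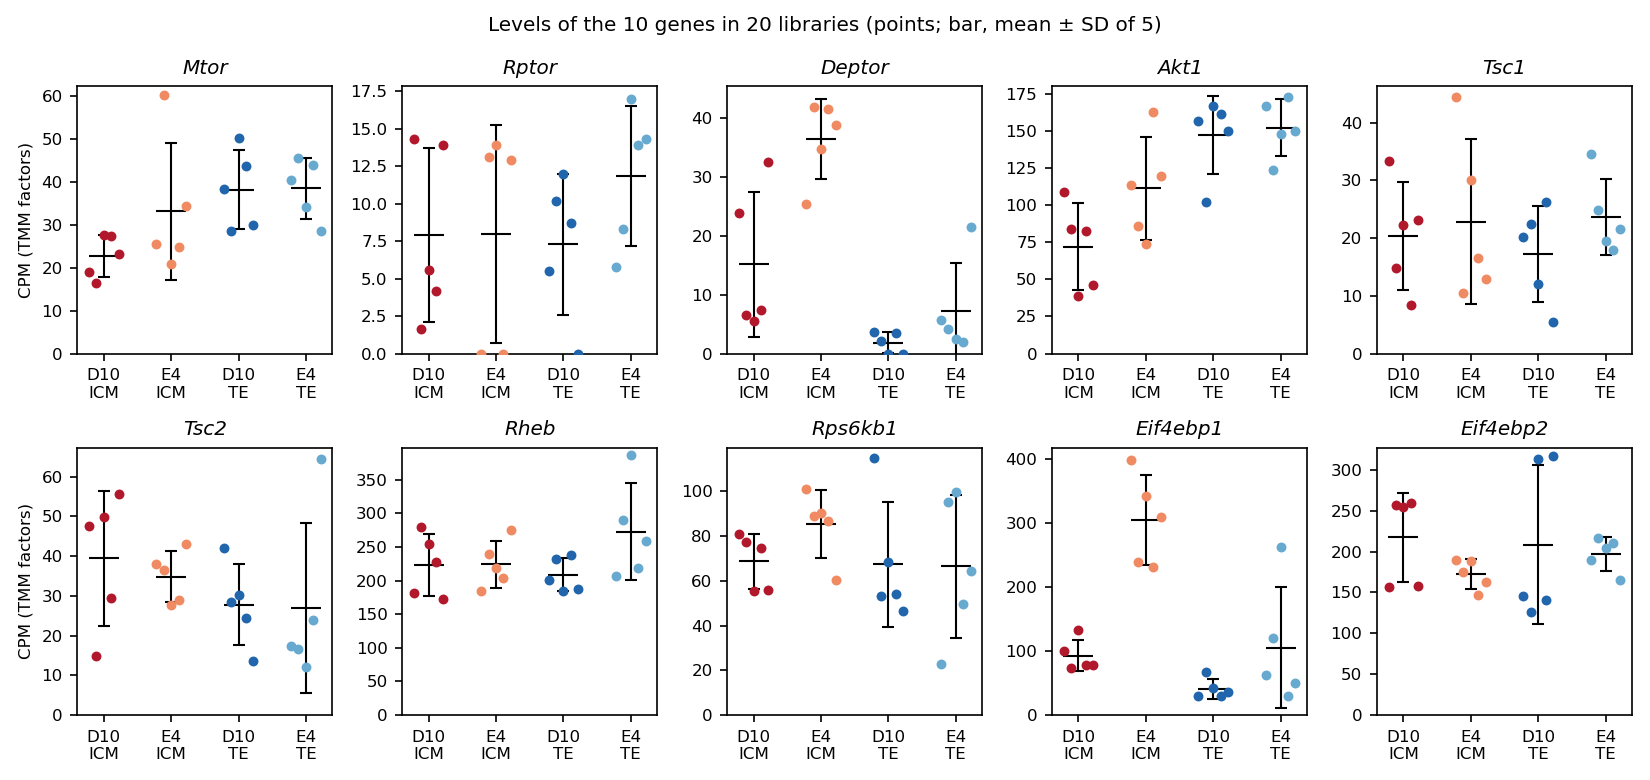
CPM of each of the 10 genes (vertical axes, own scale per gene) in the 20 libraries, grouped by time and tissue; points are libraries and bars the mean ± SD of 5. Eif4ebp1 has its highest mean in E4 ICM (232 to 399 CPM), Deptor is higher in the ICM at both times, and Rheb and Eif4ebp2 lie at 126 CPM or more in every library.

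Mtor, which codes for the kinase (ENSMUSG00000028991, GRCm38 chromosome 4, 148448611 to 148557683, plus strand), passed in 0 of the comparisons. It had 19, 16.5, 27.7, 27.3 and 23.2 CPM in D10 ICM, against 25.4, 60.1, 20.8, 24.8 and 34.4 CPM in E4 ICM. In the TE it had 38.3, 28.5, 50.2, 43.7 and 30 CPM at D10, against 40.3, 45.6, 34.1, 43.8 and 28.6 CPM at E4. All D10 ICM libraries lay below all D10 TE libraries, although the log2 difference of -0.75 ± 0.31 missed the threshold (unadjusted p = 0.0212, adjusted p = 0.0732, 95% interval -1.39 to -0.11). The other groups overlapped. The change with time was -0.55 ± 0.33 in the ICM (95% interval -1.23 to 0.13) and -0.03 ± 0.3 in the TE (-0.64 to 0.59) on the log2 scale.

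Rptor, which codes for the scaffold that presents substrates to mTOR (ENSMUSG00000025583, chromosome 11, 119602905 to 119899576, plus strand), was near the detection limit. Its counts summed to 12 in D10 ICM, 14 in E4 ICM, 19 in D10 TE and 19 in E4 TE, with 0 counts in 2 of the 5 E4 ICM libraries and 1 of the 5 D10 TE libraries. Scaled to library size, the pooled counts gave a D10 to E4 ratio of 0.668 in the ICM (exact 95% interval 0.282 to 1.56) and 0.593 in the TE (0.297 to 1.18). The ICM to TE ratio was 0.64 at E4 (0.297 to 1.35) and 0.722 at D10 (0.32 to 1.57). Each interval spans 1, so no difference was detectable at this depth. These intervals cover counting error only.

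Deptor, which codes for a protein that binds and inhibits mTOR (ENSMUSG00000022419, chromosome 15, 55112317 to 55259271, plus strand), was higher in the ICM at both times. It had 23.8, 6.59, 5.54, 7.35 and 32.5 CPM in D10 ICM, against 25.4, 41.8, 34.7, 41.4 and 38.7 CPM in E4 ICM. In the TE it had 3.65, 2.04, 0, 3.49 and 0 CPM at D10, against 5.75, 4.15, 2.43, 1.99 and 21.5 CPM at E4. In CPM, every ICM library lay above every TE library of the same time. At E4 the log2 difference of ICM minus TE was 2.79 ± 0.68 (adjusted p = 0.000946), and at D10 it was 2.50 ± 0.82 (adjusted p = 0.00882). With all libraries thinned to the smallest total the D10 difference was 1.34 and did not pass (adjusted p = 0.356). The TE values rest on 5 counts in all at D10 and 7 at E4, and the highest, 21.5 CPM in E4 TE replicate 5, is 3 counts of the shallowest library. A count of 0 in D10 TE replicates 3 and 5 allows up to 6.02 and 8.2 CPM. The D10 ICM values rest on 24 counts in all, and the lowest, 5.54 CPM in replicate 3, is 1 count. That library lies below both of these limits, so the separation of all libraries at D10 is uncertain.

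In the ICM Deptor averaged 15.2 ± 12.3 CPM at D10 and 36.4 ± 6.77 CPM at E4 (SD, n = 5 each). The log2 difference of -1.52 ± 0.50 passed (adjusted p = 0.0284), but D10 ICM replicate 5, at 32.5 CPM, lay within the range of the E4 ICM libraries. Replicates 2, 3 and 4 of D10 ICM, at 5.54 to 7.35 CPM from 4, 1 and 7 counts, were below it. The call was lost without E4 ICM replicate 2 (adjusted p = 0.0599) or 4 (0.0636), and without D10 ICM replicate 2 (0.101), 3 (0.0554) or 4 (0.101). Leaving out the 2 E4 litters with a zona pellucida ended it as well (0.0769), as did thinning all libraries to the smallest total (0.23). The epiblast marker sum moved the same way, 617 to 1130 CPM in D10 ICM and 1490 to 2730 CPM in E4 ICM. The primitive endoderm and trophectoderm sums moved the other way, and the part of cell makeup in this fall was not tested. Deptor's change in the TE, -1.22 ± 0.94 on the log2 scale (adjusted p = 0.332), had an interval of -3.15 to 0.71. The order of mean levels was E4 ICM, D10 ICM, E4 TE and D10 TE, and each neighbouring pair overlapped.

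Akt1 encodes the kinase that carries the PI3K signal to TSC2 (ENSMUSG00000001729, chromosome 12, 112653821 to 112674884, minus strand). It had 109, 84, 38.8, 82.9 and 46.4 CPM in D10 ICM, against 157, 102, 167, 162 and 150 CPM in D10 TE. Only D10 ICM replicate 1 overlapped the D10 TE range, at its low end, where D10 TE replicate 2 lay. The log2 difference of ICM minus TE at D10 was -0.98 ± 0.25 (adjusted p = 0.00385), a level in the ICM of 0.506 of that in the TE, and it passed in all 29 alternatives run (adjusted p 0.00151 to 0.0122). At E4 it had 114, 86.2, 74.1, 163 and 120 CPM in the ICM, against 167, 124, 148, 173 and 150 CPM in the TE. These groups overlapped, and the log2 difference of -0.45 ± 0.25 did not pass (adjusted p = 0.166), though it did without E4 ICM replicate 4 (0.0453). Within litters, Akt1 was lower in the ICM than in the paired TE library in 5 of 5 litters at D10 and in 5 of 5 at E4, where the fit with litter as a block did not pass either. Thus the difference passed at D10 and not at E4, but the change of that difference, -0.53 ± 0.35 on the log2 scale, did not itself pass (adjusted p = 0.428). Across time Akt1 differed by -0.58 ± 0.26 in the ICM (adjusted p = 0.102) and -0.05 ± 0.24 in the TE (adjusted p = 0.911). Akt1 averaged 72.3 ± 29.2 CPM in D10 ICM, the lowest group, 112 ± 34.7 in E4 ICM, 148 ± 26.3 in D10 TE and 153 ± 19 in E4 TE, and the TE groups overlapped.

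The brake on RHEB showed no difference that passed by edgeR, DESeq2 or limma voom, and 0 at an unadjusted p under 0.05. Tsc1, the hamartin scaffold of the complex (ENSMUSG00000026812, chromosome 2, 28641228 to 28691167, plus strand), averaged 20.4 ± 9.38 CPM in D10 ICM, 22.9 ± 14.2 in E4 ICM, 17.2 ± 8.38 in D10 TE and 23.7 ± 6.61 in E4 TE. Its largest log2 difference was -0.35 ± 0.45, for D10 against E4 in the TE (95% interval -1.27 to 0.58). Tsc2, the tuberin subunit that makes RHEB hydrolyse GTP (ENSMUSG00000002496, chromosome 17, 24595816 to 24632630, minus strand), averaged 39.5 ± 16.9 CPM in D10 ICM, 34.9 ± 6.41 in E4 ICM, 27.7 ± 10.2 in D10 TE and 26.9 ± 21.4 in E4 TE. Its largest was 0.51 ± 0.43, for ICM against TE at E4 (95% interval -0.37 to 1.39). The last 500 bases of Tsc2 overlap Pkd1 on the opposite strand, and whether counting used strand is not given in the sources used here, so its level is uncertain. Single libraries ranged from 5.46 to 44.4 CPM for Tsc1 and from 12.2 to 64.4 CPM for Tsc2, with all 4 groups overlapping for both genes.

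Rheb, which codes for the GTPase that switches mTORC1 on (ENSMUSG00000028945, chromosome 5, 24802823 to 24842624, minus strand), was measured with the smallest errors of the 9. It had 181, 279, 255, 228 and 172 CPM in D10 ICM, against 184, 240, 218, 203 and 275 CPM in E4 ICM. In the TE it had 201, 232, 185, 238 and 188 CPM at D10, against 207, 290, 387, 219 and 258 CPM at E4. The groups overlapped throughout. The log2 difference of D10 minus E4 was 0 ± 0.2 in the ICM (adjusted p = 0.999, 95% interval -0.41 to 0.41) and -0.39 ± 0.2 in the TE (adjusted p = 0.159, interval -0.79 to 0.01). Between the tissues it was -0.29 ± 0.2 at E4 (interval -0.7 to 0.12) and 0.1 ± 0.2 at D10 (interval -0.3 to 0.51). The ICM intervals across time allow changes of up to 0.41 on the log2 scale in either direction.

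**Figure D2:**
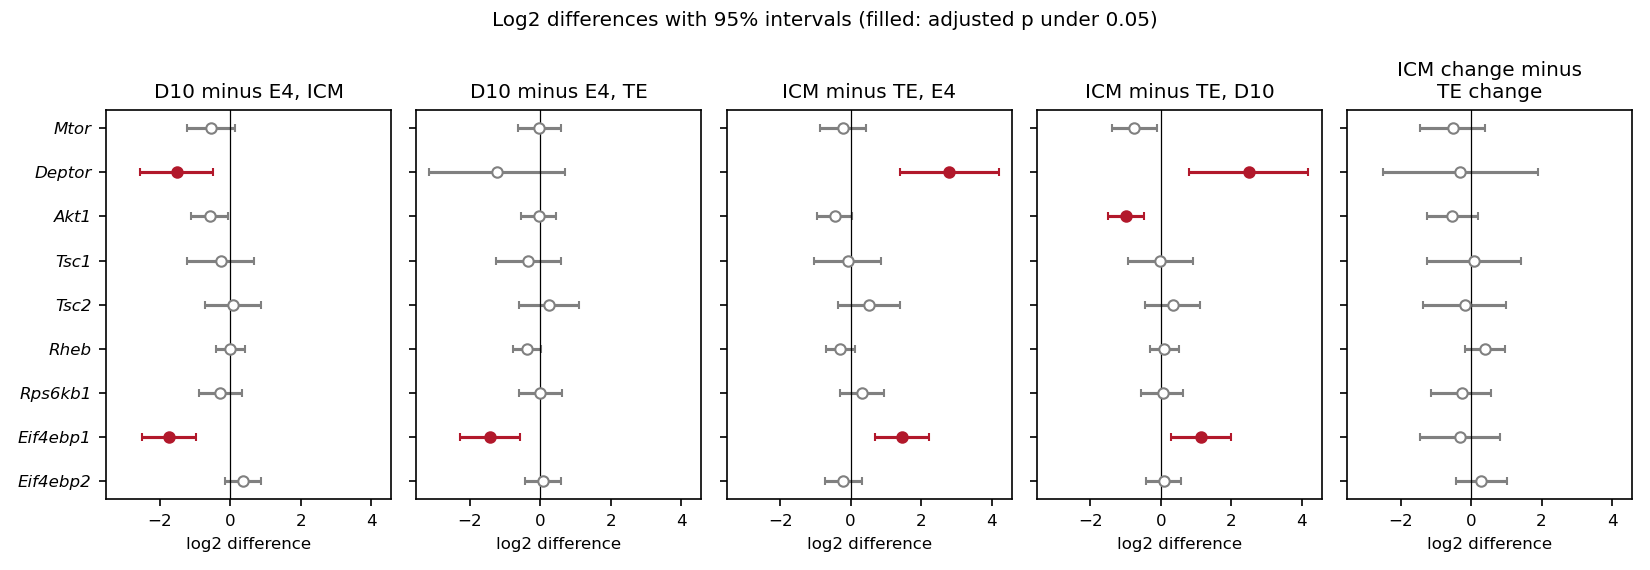
Log2 differences (horizontal axes) of the 9 tested genes with 95% intervals in the 4 comparisons and, in the last panel, of the ICM change with time minus the TE change; filled red points passed at an adjusted p under 0.05. Eif4ebp1 passed in all 4 comparisons, Deptor in 3, Akt1 in 1, and the last panel holds none.

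Among the substrates, Eif4ebp1 fell at D10 in both tissues, in the TE through 1 library as given below, and was higher in the ICM at both times. It codes for 4E-BP1, the repressor that holds eIF4E away from the cap-binding complex until mTORC1 phosphorylates it (ENSMUSG00000031490, chromosome 8, 27260329 to 27276674, plus strand, 3 exons). It had 99.8, 74.2, 133, 78.7 and 78.9 CPM in D10 ICM, against 399, 240, 343, 232 and 310 CPM in E4 ICM. The highest D10 ICM library was below the lowest E4 ICM library. The log2 difference was -1.74 ± 0.37 (adjusted p = 0.00154), a 3.35-fold lower level at D10, and it passed in all 28 alternatives run (-1.88 to -1.48, adjusted p 1.49e-08 to 0.0127). The fall ran beside the lower epiblast and the higher primitive endoderm and trophectoderm marker sums of D10 ICM given above, whose part was not tested.

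In the TE Eif4ebp1 had 29.2, 67.3, 42.1, 29.7 and 35.5 CPM at D10, against 63.3, 120, 263, 29.9 and 50.1 CPM at E4. These groups overlapped, and E4 TE replicate 3, at 263 CPM, stood above the rest. The log2 difference was -1.43 ± 0.41 (adjusted p = 0.0118). Without E4 TE replicate 3 it was -0.65 and did not pass (adjusted p = 0.206), and it also did not pass with limma voom (0.0738) or with thinned libraries (0.0504). That library also had the highest epiblast marker sum of E4 TE, 180 CPM, where the others had 85.9 to 137 CPM. In E4 ICM this sum was 1490 CPM or more. Its primitive endoderm marker sum, 1250 CPM, lay within the E4 TE range of 983 to 1320 CPM. The part of cell makeup in the Eif4ebp1 level of this library was not tested. The fall of Eif4ebp1 in the TE rests on this 1 library, while that in the ICM does not rest on any 1 library. The changes in the tissues were not shown to differ (difference of the changes -0.31 ± 0.55 on the log2 scale, 95% interval -1.44 to 0.83, adjusted p = 0.823).

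The ICM level of Eif4ebp1 exceeded that of the TE by a log2 difference of 1.45 ± 0.37 at E4 (adjusted p = 0.004) and by 1.14 ± 0.41 at D10 (adjusted p = 0.0405). At E4 the tissues overlapped only through E4 TE replicate 3, without which the log2 difference was 2.23, and the call was lost without the 2 litters that had a zona (adjusted p = 0.0784). At D10 the groups were apart, with 74.2 CPM as the lowest ICM library and 67.3 CPM as the highest TE library. The D10 call lay close to the threshold and was lost in 9 of 29 alternatives. It was lost without the litters with a zona (0.0597), without D10 ICM replicate 1 (0.0678), 3 (0.0873), 4 (0.0515) or 5 (0.0508), and without D10 TE replicate 1 (0.0889), 3 (0.0659), 4 (0.0919) or 5 (0.0714). Eif4ebp1 averaged 92.9 ± 24.5 CPM in D10 ICM, 305 ± 70.6 in E4 ICM, 40.8 ± 15.7 in D10 TE and 105 ± 94.3 in E4 TE (SD, n = 5 each). The mean of E4 ICM was the highest and that of D10 TE the lowest, and E4 TE overlapped each of the other groups.

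Eif4ebp2 codes for 4E-BP2, the paralog with the same TOS residues (ENSMUSG00000020091, chromosome 10, 61428491 to 61452661, minus strand, 3 exons), and its differences did not pass. It had 157, 257, 255, 259 and 158 CPM in D10 ICM, against 190, 175, 188, 147 and 163 CPM in E4 ICM. In the TE it had 146, 126, 313, 141 and 317 CPM at D10, against 190, 216, 204, 211 and 165 CPM at E4. In the ICM 3 of the D10 libraries lay above all E4 libraries and 2 within their range, and in the TE the D10 libraries lay on both sides of the E4 range. The log2 difference of D10 minus E4 was 0.35 ± 0.25 in the ICM (adjusted p = 0.324, 95% interval -0.16 to 0.87) and 0.06 ± 0.25 in the TE (adjusted p = 0.894, interval -0.45 to 0.57). Between the tissues it was -0.21 ± 0.25 at E4 and 0.08 ± 0.24 at D10.

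The ratio of Eif4ebp1 to Eif4ebp2 counts within a library needs no scaling between libraries. It was 0.636, 0.288, 0.522, 0.304 and 0.5 in D10 ICM, against 2.1, 1.37, 1.83, 1.58 and 1.89 in E4 ICM. Eif4ebp1 thus had more counts than its paralog in every E4 ICM library and fewer in every D10 ICM library. In the TE the ratio was 0.2, 0.532, 0.135, 0.21 and 0.112 at D10, against 0.333, 0.558, 1.29, 0.142 and 0.304 at E4, with E4 TE replicate 3 again the highest. The ratio is a description with no test, and it is not corrected for how well each 3′ end is captured.

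**Figure D3:**
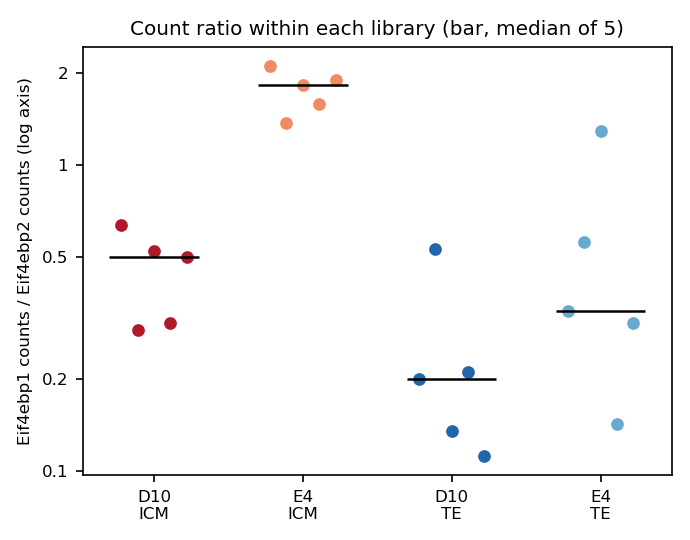
Ratio of Eif4ebp1 to Eif4ebp2 counts in each library (log axis) by group; points are libraries and bars the median of 5. The 5 E4 ICM libraries lie at 1.37 to 2.1 and the 5 D10 ICM libraries at 0.288 to 0.636, while the D10 TE and E4 TE libraries overlap.

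Rps6kb1, which codes for S6 kinase S6K1 (ENSMUSG00000020516, chromosome 11, 86498871 to 86544805, minus strand), averaged 68.8 ± 12.3 CPM in D10 ICM, 85.5 ± 15.2 in E4 ICM, 67.4 ± 27.8 in D10 TE and 66.5 ± 32.1 in E4 TE. It passed in 0 of the comparisons. Its log2 differences across time were -0.28 ± 0.29 in the ICM and -0.01 ± 0.3 in the TE. For ICM minus TE they were 0.32 ± 0.3 at E4 and 0.05 ± 0.29 at D10. Single TE libraries reached 115 CPM (D10 replicate 1) and were as low as 23 CPM (E4 replicate 1), while ICM libraries lay at 55.4 to 101 CPM. Its last 155 bases overlap Rnft1 on the opposite strand, so its level carries the same uncertainty as that of Tsc2.

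The genes whose levels ran most like those of Mtor and Eif4ebp1 over the 20 libraries were taken from the tested genes at or above the median mean level. For Mtor they were Sidt2 (Pearson r = 0.77), Stk24 (0.75), Myo5b (0.74), Osbpl8 (0.74) and Marchf6 (0.73), among 3325 candidates. For Eif4ebp1 they were Nup37 (0.85), Cct2 (0.84), Hdac1 (0.84), Npm1 (0.83) and Uba2 (0.82), among 3324. These correlations of log2 CPM are descriptions over libraries that share tissue and time.

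The rest of the pathway was read through 8 lists of 100 genes by role, the 10 genes included. Beside the 9 tested genes above, 54 others were tested. For D10 against E4 in the ICM 11 of the 54 rose and 11 fell, and in the TE 8 rose and 1 fell. Between the tissues 9 were higher and 5 lower in the ICM at E4, and 6 higher and 6 lower at D10. These were 25.9% and 22.2% of the 54, no more than over all tested genes, of which 15.8% were higher and 15.4% lower at E4 and 12.9% and 12.6% at D10. The difference of the changes passed for 0 of the 54 by edgeR and by DESeq2 and for 1 by limma voom, with 11 at an unadjusted p under 0.05. By edgeR 4.98% of all tested genes passed. Their share at an unadjusted p was not counted, so the 11 cannot be set against a background. In the ICM across time 40.7% of these genes passed, and in the TE 16.7%, where 13.7% and 9.97% of all tested genes rose and fell in the ICM and 11.9% and 9.89% in the TE. In the ICM the marker sums given above differed between the times. In the TE the trophectoderm and epiblast sums overlapped between the times, and the primitive endoderm sum was higher at D10. The part of cell makeup in these shares was not tested.

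Among the growth factor inputs, the change with time in the TE passed for 0 of 9 tested genes (edgeR, with 2 at an unadjusted p under 0.05, 0 by DESeq2 and 0 by limma voom). Of all tested genes 11.9% rose and 9.89% fell in that comparison by edgeR. Between the tissues, 0 were higher and 2 lower in the ICM at E4, and 1 was higher and 2 lower at D10, Akt1 included, where 15.8% and 15.4% of all tested genes were at E4 and 12.9% and 12.6% at D10. Pik3cb, a catalytic subunit of PI3K, was lower in the ICM, at 34 ± 9.29 CPM against 115 ± 18.8 CPM in the TE at E4 (-1.78 ± 0.30, adjusted p = 6.12e-05). At D10 it had 57.8 ± 27.9 CPM in the ICM and 95.8 ± 27.6 CPM in the TE (-0.80 ± 0.27, adjusted p = 0.0324, lost in 7 of 29 alternatives, up to 0.207). Among the regulatory subunits, Pik3r3 was lower in the ICM at E4 (-2.46 ± 0.87, adjusted p = 0.0167, 0.0986 with thinned libraries and 0.0758 without the litters with a zona), and Pik3r1 was higher in the ICM at D10 (0.99 ± 0.37, adjusted p = 0.0461, lost in 14 of 28 alternatives, up to 0.132). The Pik3r3 level in E4 ICM was low, at 5.61 ± 5.04 CPM. Of the mTORC2 subunits, Prr5 was lower in the ICM at D10, at 16.3 ± 11.9 CPM against 55.4 ± 11.5 CPM in the TE (-1.47 ± 0.37, adjusted p = 0.0029). Mapkap1 was higher at D10 in the ICM (0.76 ± 0.28, adjusted p = 0.0487), a call lost in 22 of 27 alternatives, up to 0.19.

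Energy and stress inputs showed 3 of 6 tested genes higher and 0 lower at D10 in the ICM, and 1 higher and 0 lower in the TE, where 13.7% and 9.97% of all tested genes were in the ICM and 11.9% and 9.89% in the TE. No gene of this list was lower at an unadjusted p under 0.05 or by DESeq2 or limma voom. Hif1a, the oxygen-regulated transcription factor, had 158 ± 49 CPM in D10 ICM and 55.9 ± 18.2 CPM in E4 ICM (log2 difference 1.41 ± 0.28, adjusted p = 0.000569). In the TE it had 154 ± 54.1 CPM at D10 and 51.7 ± 11.8 CPM at E4 (1.54 ± 0.28, adjusted p = 0.000245). Sesn2, a stress-induced inhibitor of mTORC1, rose in the ICM by 1.84 ± 0.52 (adjusted p = 0.00768), lost only without D10 ICM replicate 4 (0.0657) among its 27 alternatives. The AMPK subunits differed between the tissues. Prkag2 was lower in the ICM at E4 (-2.86 ± 0.46, adjusted p = 1.16e-05) and D10 (-1.63 ± 0.35, adjusted p = 0.000904). Its level in E4 ICM was low, at 8.83 ± 6.58 CPM. Prkab1 was higher in the ICM at E4 (1.5 ± 0.26, adjusted p = 0.000102) and D10 (0.66 ± 0.24, adjusted p = 0.048, lost in 14 of 29 alternatives, up to 0.271). Prkag2 was also higher at D10 in the ICM (1.28 ± 0.48, adjusted p = 0.0441, lost in 12 of 28 alternatives, up to 0.361).

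For the amino acid inputs, 3 of 17 tested genes rose and 2 fell at D10 in the ICM, and 3 rose and 0 fell in the TE. These counts were near the shares over all tested genes, 13.7% and 9.97% in the ICM and 11.9% and 9.89% in the TE. Rraga, Fnip1 and Flcn rose in both tissues, and the 0 also held in the TE at an unadjusted p under 0.05. Rraga, a Rag GTPase that brings mTORC1 to the lysosome, had 147 ± 42.6 CPM in D10 ICM and 59.4 ± 26.3 CPM in E4 ICM (1.37 ± 0.30, adjusted p = 0.00201), and 271 ± 56.7 CPM in D10 TE and 74.9 ± 34.5 CPM in E4 TE (1.77 ± 0.29, adjusted p = 7.41e-05). Flcn and Fnip1 code for folliculin and its partner, which act on the Rag GTPases. Fnip1 rose by 1.22 ± 0.28 in the ICM (adjusted p = 0.00222) and 1.06 ± 0.28 in the TE (adjusted p = 0.00732). Flcn rose by 1.11 ± 0.29 in the ICM (adjusted p = 0.00578, 0.0866 with thinned libraries) and 0.89 ± 0.29 in the TE (adjusted p = 0.0247, lost in 8 of 28 alternatives, up to 0.189). Between the tissues Rragd, another Rag GTPase, was lower in the ICM at E4 (-2.31 ± 0.42, adjusted p = 0.000119) and D10 (-1.44 ± 0.40, adjusted p = 0.009), and Rraga was lower at D10 (-0.91 ± 0.27, adjusted p = 0.0139). Seh1l and Sec13, which belong to GATOR2 and to the nuclear pore, were higher in the ICM at E4, by 0.82 ± 0.22 (adjusted p = 0.00537) and 0.65 ± 0.21 (adjusted p = 0.0189, lost in 5 of 29 alternatives, up to 0.112).

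Translation outputs moved both ways: 4 of 13 tested genes rose and 4 fell at D10 in the ICM, and 4 rose and 2 fell in the TE, Eif4ebp1 included. Of all tested genes 13.7% rose and 9.97% fell in the ICM, and 11.9% and 9.89% in the TE. Pdcd4, an inhibitor of the helicase eIF4A that S6 kinase marks for degradation, showed the smallest p of the list. It had 947 ± 205 CPM in D10 ICM and 146 ± 36.6 CPM in E4 ICM (2.70 ± 0.28, adjusted p = 5.96e-07), and 1300 ± 303 CPM in D10 TE and 224 ± 110 CPM in E4 TE (2.57 ± 0.28, adjusted p = 5.9e-07). Eif4b, a cofactor of eIF4A, rose by 0.89 ± 0.20 in the ICM (adjusted p = 0.00237) and 1.08 ± 0.20 in the TE (adjusted p = 0.000412). Larp1, which binds the 5′ ends of ribosomal protein mRNAs under mTORC1 control, fell by 0.85 ± 0.18 in the ICM (log2 difference -0.85, adjusted p = 0.00142) and by 1.12 ± 0.18 in the TE (-1.12, adjusted p = 8.98e-05). At D10 Larp1 was higher in the ICM than in the TE (0.59 ± 0.18, adjusted p = 0.0192), lost without D10 TE replicate 4 (0.0596), without a low-count filter (0.155) and with thinned libraries (0.216). Eif4e, the cap-binding factor itself, was also higher in the ICM at D10 (0.73 ± 0.20, adjusted p = 0.0089). The Eif4e call was lost without a low-count filter (0.0569) and with thinned libraries, where the difference was 0.21 (0.679). Rps6kb2, the second S6 kinase, was lower in the ICM at D10 (-1.75 ± 0.36, adjusted p = 0.000583), with a 3′ end that overlaps Coro1b and Ptprcap on the opposite strand.

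The last list holds other mTORC1 substrates and related genes, Pprc1 among the latter. Of these, 0 of 9 rose and 5 fell at D10 in the ICM, where 13.7% of all tested genes rose and 9.97% fell. In this list 0 also rose at an unadjusted p under 0.05, by DESeq2 or by limma voom. In the TE 0 changed by these tests, where 11.9% of all tested genes rose and 9.89% fell at an adjusted p under 0.05 by edgeR. Atg13, of the autophagy-starting kinase complex, had 80.9 ± 26.6 CPM in D10 ICM and 181 ± 67.7 CPM in E4 ICM (-1.19 ± 0.27, adjusted p = 0.00223). Mitf and Tfe3, transcription factors of lysosomal genes, fell in the ICM by 2.04 ± 0.51 (-2.04, adjusted p = 0.00372, 0.098 with thinned libraries) and by 1.29 ± 0.41 (-1.29, adjusted p = 0.0233). The Tfe3 call was lost without E4 ICM replicate 5 (0.054) or D10 ICM replicate 2 (0.0833) and with thinned libraries (0.092). Between the tissues at E4, 6 of the 9 were higher in the ICM and 0 lower (1 lower at an unadjusted p under 0.05 and by limma voom, 0 by DESeq2), and at D10 2 were higher and 0 lower (2 lower at an unadjusted p under 0.05, 0 by DESeq2 and by limma voom). Over all tested genes 15.8% were higher and 15.4% lower at E4, and 12.9% and 12.6% at D10. Mitf was higher in the ICM at E4 (3.19 ± 0.70, adjusted p = 0.00019) and at D10 (2.68 ± 0.95, adjusted p = 0.00855, 0.0944 with thinned libraries). In the TE Mitf was near the detection limit, at 4.29 ± 4 CPM at E4 and 1.1 ± 1.6 CPM at D10. Grb10 was also low there, at 5.16 ± 4.12 CPM at E4 and 7.42 ± 9.87 CPM at D10, so the sizes of these differences are uncertain. Grb10, an adaptor that restrains insulin receptor signalling, was higher at E4 (2.53 ± 0.88, adjusted p = 0.0132, 0.0552 without E4 TE replicate 4 and up to 0.0663 in the other alternatives that ended the call) and at D10 (3.10 ± 0.65, adjusted p = 0.000291). Pprc1, a coactivator of mitochondrial genes, was higher at E4 (1.34 ± 0.27, adjusted p = 0.000409). The median of this list was -0.78 across time in the ICM and 1 between the tissues at E4, beside 0 and 0.03 over all tested genes.

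**Figure D4:**
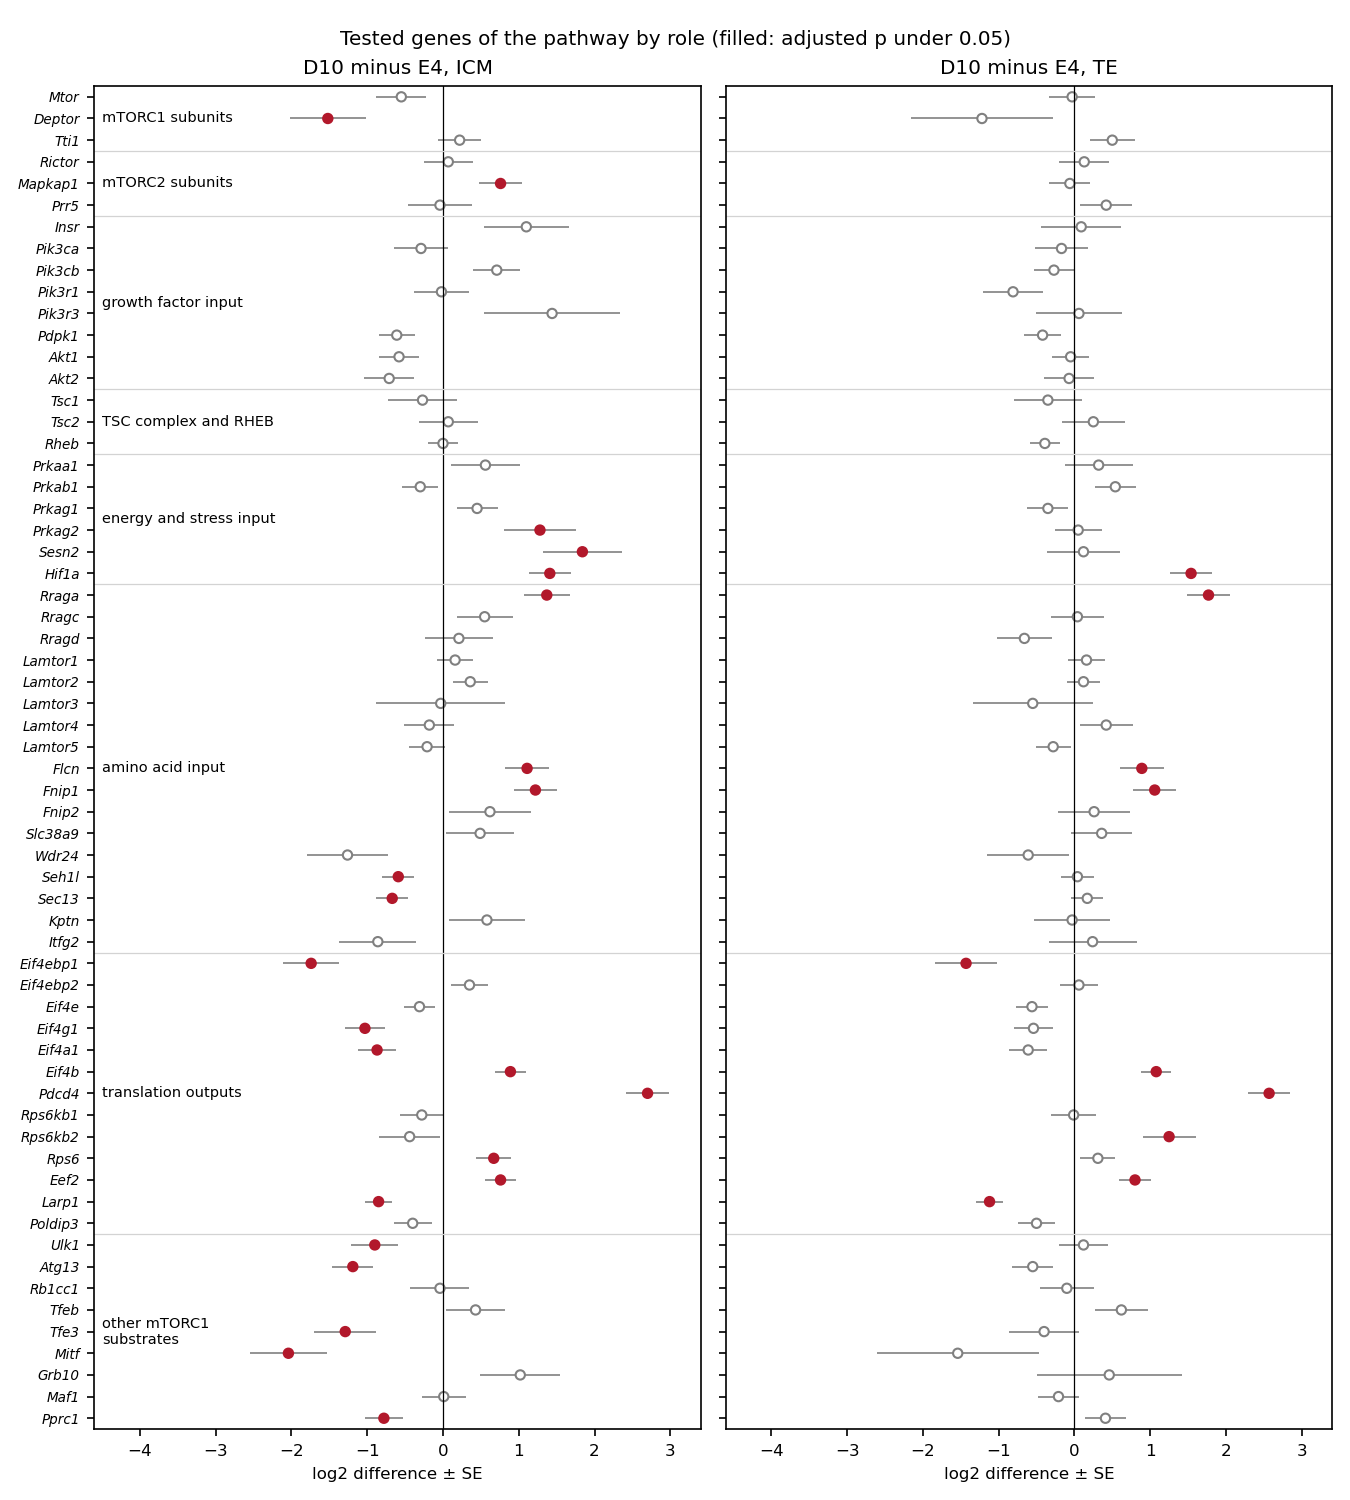
Log2 differences of D10 minus E4 ± SE (horizontal axes) for tested genes of the 8 lists, in the ICM and the TE, with 1 row per gene and 1 of the 63 genes not shown; filled red points passed at an adjusted p under 0.05. Pdcd4 lies at 2.70 and 2.57 on the right in the ICM and the TE, Eif4ebp1 at -1.74 and -1.43 on the left, and the TSC complex and RHEB hold no filled point.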

How the data were processed

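Raw counts per gene and barcode were deposited by the authors in a single table of 21470 genes and 20 libraries, with a barcode list of litter and zona pellucida. Libraries were made by BRB-seq, which reads 3′ ends, per the labels' protocols. Per the submitters' processing notes, featureCounts 2.0.1, HISAT2 2.2.1, Trim Galore 0.6.7 and UMI-tools were used, with builds GRCm38 and GRCh38 and no roles stated. The annotation counted, the use of strand and any collapsing by UMI are not given in those notes or labels. Totals of 144276 to 1010354 limit precision, and 0 columns were left unused.

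Counts were tested in R 4.3.3 with edgeR 4.0.16 (quasi-likelihood, TMM, filterByExpr with a minimum count of 10, 1 fit of 4 groups) over 6943 genes, with Benjamini-Hochberg adjustment. SEs and 95% intervals used the fit's moderated dispersion, and the procedure was tested on simulated data. Alternatives used RLE factors, no filter, a minimum count of 30, DESeq2 1.42.0, limma 3.58.1 voom, thinned libraries, only the groups compared, no litters with a zona, litter as a block, and each library left out. Within a time, an ICM and a TE library of equal number shared a litter, per the deposited barcode list, so numbers pair the tissues. The 5 such pairs deviated together on average, with a mean correlation of 0.168 at D10 (-0.0302 to 0.293) and 0.177 at E4 (0.104 to 0.263). Pairs from different litters averaged -0.0418 at D10 and -0.0435 at E4. D10 and E4 litters differ, so numbers pair nothing across time. The lowest chi-square per degree of freedom between libraries of a group was 2.57, so none was a copy of another. This check cannot tell separate samples from technical replicates of 1 sample. The table was fitted whole and the 10 genes then read from it. The genes and lists were chosen with earlier results of these data known. Named were all 10 genes, up to 3 passing genes per list and comparison with the smallest adjusted p, and the 5 genes most correlated with Mtor and with Eif4ebp1. Gene positions and transcripts came from GENCODE M21. Results of 1 gene of the lists are not reported here. Near-identical copies were looked for among the 10 genes only.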

Additional observations from a re-analysis of the deposited data

Results flagged for a closer look

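In 40 checks of a gene within a group of 5 libraries, 3 libraries stood far from the other 4 of their group, and chance gives about 1 in 20. Deptor had 21.5 CPM in E4 TE replicate 5, which is 3 counts, where the other E4 TE libraries had 1.99 to 5.75 CPM. Tsc2 had 64.4 CPM in the same library, the shallowest of the series with 144276 counts, where the others had 12.2 to 23.9 CPM. Akt1 had 102 CPM in D10 TE replicate 2, where the others had 150 to 167 CPM. Without each of these libraries in turn, the Akt1 and Deptor differences between the tissues kept their calls.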

How the results depend on the processing

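Of 8 differences that passed, 3 did so in all alternatives run: Eif4ebp1 in the ICM across time, Deptor between the tissues at E4, and Akt1 at D10. The other 5 lost their call in 21 of their alternatives, as given beside them. No passing difference was reversed. Of the 37 that did not pass, 1 passed in an alternative, and 16 changed sign in at least 1. For D10 against E4 in the ICM, 1 of the 10 genes instead of 2 passed at a minimum count of 30, with thinned libraries and without the litters with a zona, and 1 to 2 with a library left out. In the TE, 0 instead of 1 passed with limma voom and with thinned libraries, and 0 to 1 with a library left out. Between the tissues at E4, 1 instead of 2 passed at a minimum count of 30 and without the litters with a zona. At D10, 2 instead of 3 passed at these settings and with thinned libraries. With a library left out, 2 to 3 passed at each time. At a minimum count of 30 only 5 of the genes were tested. Otherwise the cause was not tested.

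Over all genes, calls for D10 against E4 in the ICM numbered 1643, and 1083 with thinned libraries and 1069 without the litters with a zona. In the TE they numbered 1513 of the 6943 genes tested, and 1003 of the 3504 tested at a minimum count of 30. Between the tissues they numbered 2165 at E4 and 1771 at D10, with 1151 at D10 with thinned libraries. At a minimum count of 30 they numbered 1404 and 1170 of the 3504 genes. The difference of the changes had 346, with 194 with thinned libraries and 193 without the litters with a zona. Without a filter it had 538 of 20558 genes tested. Counts under another filter cover another set of genes, so they do not count lost or gained calls of the same genes. With litter as a replicate block, calls numbered 2356 between the tissues at E4, 1952 at D10 and 496 for the difference of the changes, and it changed no call of the 10 genes. Of 43 named differences of other pathway genes, 26 kept their call in all alternatives run and 0 reversed. Counts of other pathway genes that passed ran over the alternatives from 12 to 22 in the ICM across time, 6 to 10 in the TE, 9 to 16 for ICM against TE at E4, 6 to 14 at D10, and 0 to 2 for the difference of the changes. Low counts limit Rptor and the TE and D10 ICM levels of Deptor. They also limit named pathway genes, among them Mitf and Grb10 in the TE and Pik3r3 and Prkag2 in E4 ICM.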
